A study of Mus musculus with 2 samples.

Results

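The Mir191-Mir425 cluster is a pair of microRNA (miRNA) hairpins on mouse chromosome 9, and it was followed here through 2 of the 1973 miRNA genes counted in embryonic kidney. Mir425 was read on its own strand. Mir191 has no line among the counts under its identifier in the GENCODE M21 annotation. It was therefore read through Gm24083, an annotated miRNA gene on the other strand that covers the whole Mir191 hairpin. A read opposite to Gm24083 thus lies on the strand of Mir191. The members were chosen from these counts, which are therefore given as a description with no test. The libraries hold RNA shorter than 30 nt from kidneys of healthy B6NCrl mouse embryos aged 15.5 days, and the labels name no treatment. There is 1 group with 2 biological replicates, each a pool of male and female embryos, 78 in replicate 1 and 62 in replicate 2. The pools hold every cell type of the organ, so more cells of a type and more of a miRNA per cell cannot be told apart.

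A miRNA gene is transcribed as a long precursor, in which a hairpin is cut out and then trimmed to a mature strand of about the length sequenced here. The mature strand guides a silencing complex to messenger RNAs, mainly through its seed, the bases near its 5′ end. Hairpins that lie close together on a strand can be cut from a shared precursor, yet their mature products can differ in level because cutting and turnover differ. The Mir191-Mir425 pair is known from many tissues. In mouse erythroblasts, miR-191 is known to act on Riok3 and Mxi1 and to hold back the loss of the nucleus. In human cells, miR-425 is known to act on NPPA, the gene of atrial natriuretic peptide. miR-191 is also used as a reference in quantitative PCR, because its level varies little between many tissues.

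The mature sequences are shown first, since they set which reads can be told apart and which miRNAs share targets. They are from RefSeq (GRCm38.p6), which held the hairpins of Mir191 and Mir425, and capitals mark the seed, bases 2 to 8.
mmu-miR-191-5p: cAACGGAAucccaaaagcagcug
mmu-miR-191-3p: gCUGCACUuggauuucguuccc
mmu-miR-425-5p: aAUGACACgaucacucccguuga
mmu-miR-425-3p: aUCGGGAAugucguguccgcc
mmu-miR-489-3p: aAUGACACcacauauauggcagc
The 4 mature strands of the cluster have 4 different seeds, so the neighbours do not share a seed. Among the mature miRNAs of that table, the seed of miR-425-5p recurs only in miR-489-3p, and the other 3 seeds recur in none. Mir489, on chromosome 6, had 5 own-strand reads in replicate 1 and 2 in replicate 2. Mir425 therefore held 99.95% and 99.98% of the reads of hairpins with that seed. At hairpin level the arms are not told apart, so these shares count reads of either arm.

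The hairpins follow with their mature arms in capitals, and after them the Gm24083 transcript of GENCODE M21 (GRCm38), in which capitals mark the reverse complement of the Mir191 hairpin.
Mir191 hairpin: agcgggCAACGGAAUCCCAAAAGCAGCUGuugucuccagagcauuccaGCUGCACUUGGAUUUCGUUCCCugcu
Mir425 hairpin: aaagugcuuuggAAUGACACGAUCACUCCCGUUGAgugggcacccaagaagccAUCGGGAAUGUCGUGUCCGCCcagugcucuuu
Gm24083: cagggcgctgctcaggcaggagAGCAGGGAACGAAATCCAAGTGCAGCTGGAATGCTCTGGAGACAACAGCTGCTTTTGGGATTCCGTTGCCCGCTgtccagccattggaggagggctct
The Mir191 hairpin of 74 nt lies at chr9:108568319-108568392 on the plus strand, and the Mir425 hairpin of 85 nt at chr9:108568777-108568861 on the same strand, 384 nt further on. Gm24083 (ENSMUSG00000092915.1) spans 120 nt at chr9:108568295-108568414 on the minus strand. It extends beyond the Mir191 hairpin by 24 nt on the 5′ side of the plus strand and by 22 nt on the 3′ side, and the counts do not say where in those 120 nt a read lay. Folded with RNAfold, the Mir191 and Mir425 hairpins had minimum free energies of -35.0 and -31.7 kcal/mol with 28 base pairs each. The reverse complement of the Mir191 hairpin folded to -30.6 kcal/mol with 26 base pairs, so the sequence also gives a predicted hairpin when read from the other strand.

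The annotations differ on the gene that hosts the cluster. Dalrd3 encodes a protein with an anticodon-binding domain, known in human cells to take part in the methylation of arginine tRNAs. In GENCODE M21 it starts 1024 nt beyond the end of Mir425, so neither hairpin is inside it. Both lie instead in 4833445I07Rik (ENSMUSG00000103103.1), a long intergenic noncoding RNA at chr9:108567533-108569174 on the plus strand. The single exon of its longer transcript holds both hairpins. In its spliced transcript, Mir191 lies in the intron and Mir425 begins after a gap of 2 nt beyond the last exon. The RefSeq extent of Dalrd3 reaches further upstream, from 108567484 to 108572773, and contains both hairpins.

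**Figure D1:**
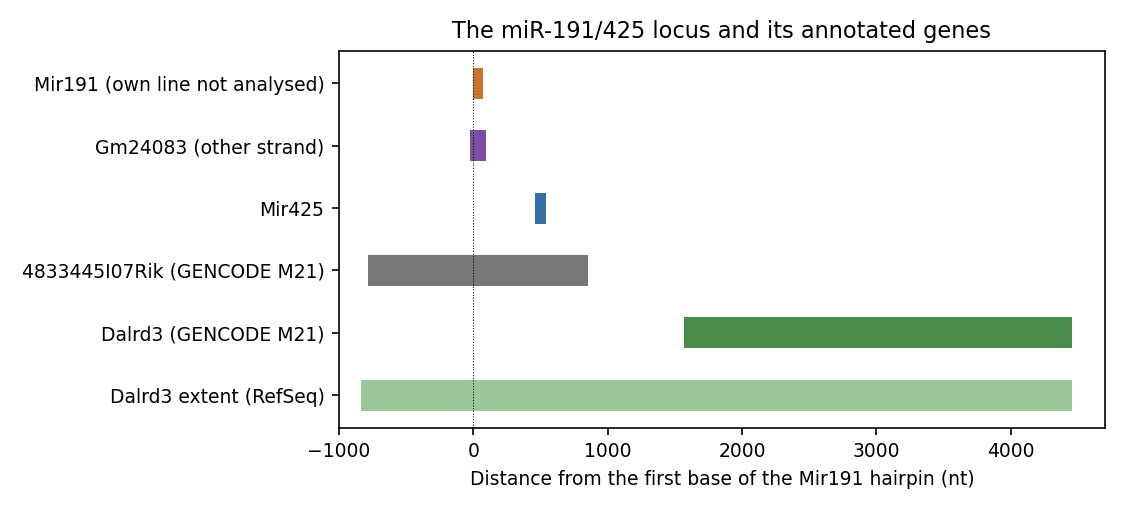
The Mir191-Mir425 locus drawn to scale, with the distance in nt from the first base of the Mir191 hairpin on the x axis and 1 annotated gene per row. Gm24083 covers Mir191 on the other strand, Mir425 starts 458 nt from the first base of Mir191, and the 2 annotations place the start of Dalrd3 on different sides of the hairpins.

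The strand of the reads was nearly complete at both genes. Mir425 (ENSMUSG00000065579.1) had 10324 own-strand reads in replicate 1 and 8567 in replicate 2, and 0 opposite reads in each, which allows a share of up to 0.0291% and 0.0350%. Gm24083 showed the reverse, with 14971 and 14692 opposite-strand reads against 1 and 0 on its own strand. The opposite strand thus held 99.99% of the Gm24083 reads in replicate 1 (95% exact binomial interval 99.96 to 100%) and 100% in replicate 2 (99.97 to 100%). Every counted read of the cluster but 1 therefore lay on the plus strand. Intervals and such limits cover counting error only, since reads without molecular identifiers are not independent molecules.

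Gm24083 was 1 of 9 genes with at least 1000 opposite-strand reads in each library, against a background of 0.456% of the 1973 genes, and nothing is read from that count because such reads chose the member. It ranked 4 among them in both libraries and held 9.10% and 10.5% of all opposite-strand reads. All 9 lie opposite to a GENCODE M21 miRNA gene that has no line under its own identifier. None of the 9 had more than 15 own-strand reads in a library. Lying opposite to such a gene did not by itself go with many reads. Of the 32 genes placed that way, 8 had 0 opposite-strand reads in both libraries. These 8 are not all like Gm24083. Mir30e had 108394 and 116619 own-strand reads, while Mir5615-2 and Mir290a had 0 on either strand. Gm25641, opposite to Mir9-1, a neural miRNA gene, had 3 opposite-strand reads and 0 own-strand reads in each library. Among the 149 genes with at least 1000 own-strand reads in both libraries, opposite-strand reads made up a median of 0%.

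**Figure D2:**
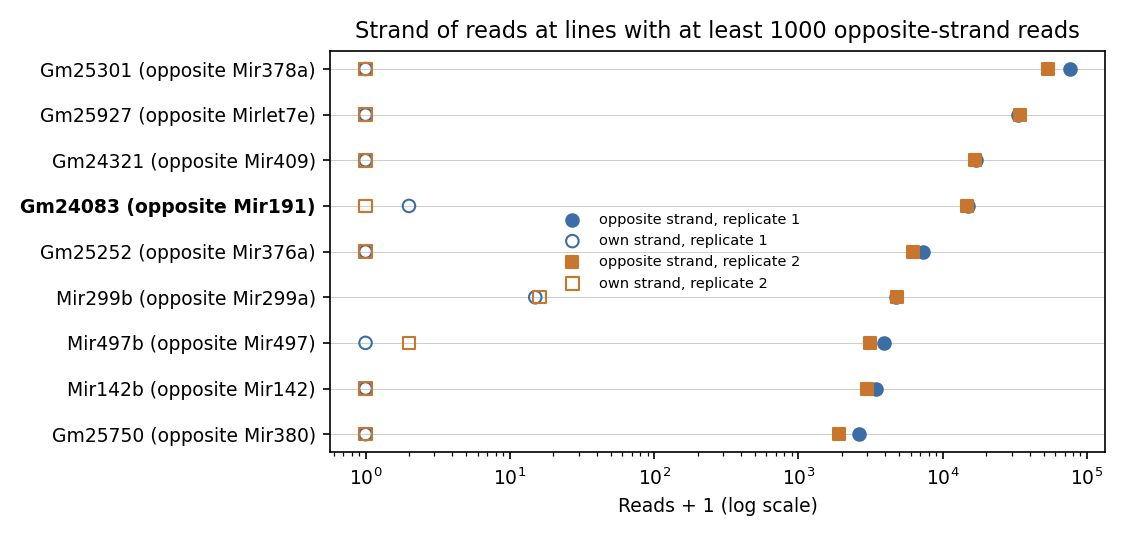
Reads plus 1 on a log axis at the 9 genes with at least 1000 opposite-strand reads in both libraries, with filled symbols for the opposite strand and open symbols for the own strand (circles, replicate 1; squares, replicate 2). At Gm24083, in bold, 14971 and 14692 reads were on the opposite strand and 1 and 0 on its own.

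Levels were scaled to the 7434182 and 5863293 own-strand miRNA reads of the libraries and are given as CPM, counts in a library total of 1000000. Mir425 stood at 1389 CPM (interval 1362 to 1416) and 1461 CPM (1430 to 1492) in replicates 1 and 2, a mean of 1425 ± 51.2 CPM (SD, n = 2). The reads opposite to Gm24083 stood at 2014 CPM (1982 to 2046) and 2506 CPM (2465 to 2547), a mean of 2260 ± 348 CPM. The levels of the genes did not overlap, and the lower Gm24083 value was above the higher Mir425 value. The sum of the pair was 3403 and 3967 CPM, a mean of 3685 ± 399 CPM. The own-strand total that sets the CPM scale does not contain the reads opposite to Gm24083, and over the reads of both strands the sum had a mean of 3602 CPM. Of the reads of the pair, 59.2% (58.6 to 59.8%) in replicate 1 and 63.2% (62.5 to 63.8%) in replicate 2 were in the opposite-strand column, and a table of own-strand counts holds only the rest.

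Mir425 ranked 74 and 75 among the own-strand counts of the 1973 genes. The Gm24083 reads would rank 60 and 57 on the same scale. With the opposite-strand reads of all 9 genes entered beside the own-strand counts, the ranks were 78 and 79 for Mir425 and 63 and 60 for Gm24083. Mir10a, the most abundant gene, had 120.4 and 96.3 times the reads of Mir425, and 83.05 and 56.2 times those of Gm24083. The neighbours in this order did not differ from the members beyond their spread. By mean level Mir467e stood next above Mir425 at 1429 ± 77.8 CPM, and Mir101b next below at 1420 ± 136 CPM. Next above Gm24083 stood Mir369 at 2312 ± 354 CPM, and next below Mir140, a cartilage miRNA, at 2144 ± 536 CPM. The range over the libraries overlapped that of Mir425 for 11 genes and that of Gm24083 for 13 genes.

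**Figure D3:**
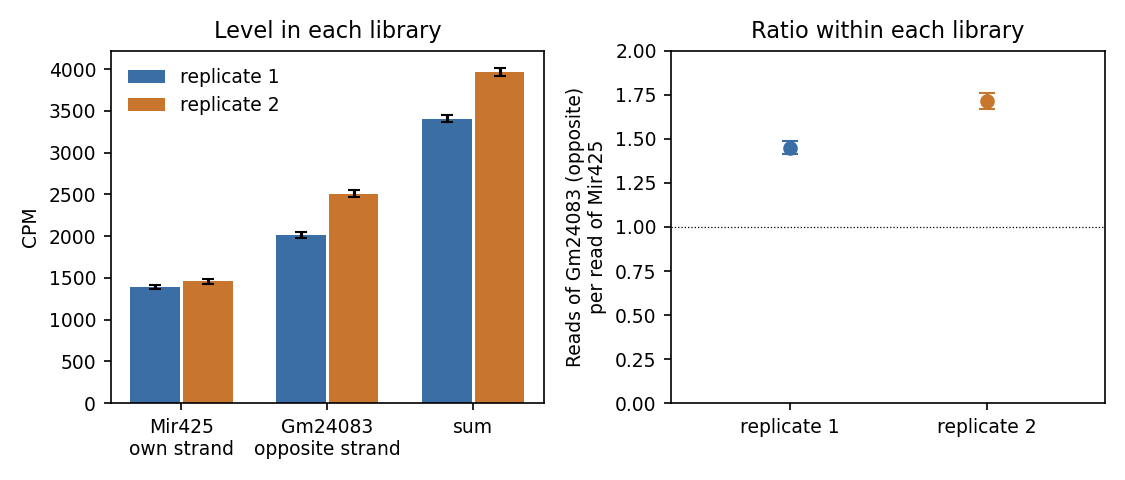
Left, the level in CPM of Mir425 (own strand), Gm24083 (opposite strand) and their sum in replicate 1 (blue) and replicate 2 (orange), with 95% exact binomial intervals. Right, reads of Gm24083 per read of Mir425 in each library, 1.45 and 1.71, both above the dotted line at 1.

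Within a library the ratio of the pair is free of library size. It is a ratio of reads, and whether different miRNAs were captured equally was not tested, so it is not read as a ratio of molecules. There were 1.45 reads opposite to Gm24083 for each Mir425 read in replicate 1 (interval 1.41 to 1.49) and 1.71 in replicate 2 (1.67 to 1.76), a mean of 1.58 ± 0.187 (SD, n = 2). The intervals did not overlap, so the ratio differed between the pools by more than counting error, by 0.24 on the log2 scale. A mature miRNA gives a read of its whole length, so counts were not divided by gene length. Per nucleotide of annotated gene the ratio was 1.03 and 1.21 over the 120 nt of Gm24083, and 1.67 and 1.97 over the 74 nt of the Mir191 hairpin. The reads opposite to Gm24083 were at least as many as those of Mir425 on each of these scales.

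Other neighbouring hairpins were mostly less even in their reads. In 53 pairs of adjacent own-strand genes within 1 kb, both genes averaged 100 or more reads. There the higher gene exceeded the lower by a median of 7.99 times, from 1.09 to 609.7 times. Some genes are in more than 1 pair, and a hairpin without a line can lie between the genes of a pair. A smaller ratio than the 1.59 of mean levels in the Mir191-Mir425 pair was found in 6 of the 53 pairs (11.3%). Among them were Mir27a over Mir24-2 at 1.09, Mir374b over Mir421 at 1.39 and Mir93 over Mir106b at 1.49. Reads with several matching loci were assigned to no gene, so a hairpin that has 20 nt in common with another miRNA gene can be undercounted. Mir27a over Mir24-2 is a pair with such a hairpin. Among 36 pairs without such hairpins, both genes averaging 100 or more reads, the median was 7.98 times and the lowest 1.35. A smaller ratio than that of the Mir191-Mir425 pair was found in 4 of these 36 (11.1%). Where only the higher gene had to average 100 reads, the median ratio was 24.5 over 85 pairs, with lower genes under 3 reads set to 3, and 12.7 over the 46 of them without such hairpins. In 25 of the 85 pairs the lower gene had under 3 reads in a library, so their ratios are lower bounds. The difference of the ratio between the libraries, 0.24 on the log2 scale, was larger than that of 25 of the 53 pairs, whose median was 0.31.

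Of the other 8 genes read by their opposite strand, 6 stood for a hairpin with an analysed neighbour within 1 kb on its strand. The closest in balance was Mir497, read through Mir497b, with 1.09 and 1.40 reads per read of Mir195a. Mirlet7e, read through Gm25927, had 0.281 and 0.379 reads per read of Mir99b. Mir409, read through Gm24321, had 76.4 and 75.9 per read of Mir412. The Mir191-Mir425 ratio lay between these, with the hairpin read through the opposite strand the higher of the pair.

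The cluster has little sequence in common with other miRNA genes. Neither Mir425 nor Mir191 shares 20 nt with a miRNA gene elsewhere in GENCODE M21. The fewest mismatches between a mature strand and any of the other 1004 RefSeq hairpins, on either strand and without gaps, were 7 of 23 for miR-191-5p, 6 of 22 for miR-191-3p, 8 of 23 for miR-425-5p and 7 of 21 for miR-425-3p. Sequences elsewhere in the genome were not searched.

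Between the pools, Mir425 was nearly level and Gm24083 was higher in replicate 2. The log2 ratio of replicate 2 over replicate 1 was 0.07 for Mir425 (interval 0.03 to 0.11) and 0.32 for Gm24083 (0.28 to 0.35), a fold of 1.24. Neither member passed 1.5-fold, against a background of 15.9% of the 264 genes that averaged 100 or more own-strand reads. Those 42 genes split into 39 higher and 3 lower in replicate 2 on this scale, and into 28 and 10 with TMM factors (edgeR). The median over the 264 genes was 0.13 and their median absolute log2 ratio was 0.25. Mir425 had a larger absolute ratio than 48 of 263 other genes (18.3%), and Gm24083 than 163 of 264 (61.7%). The sign for Mir425 depends on the scaling, at -0.05 with TMM factors and -0.09 with DESeq2 size factors, while Gm24083 stayed above 0 at 0.19 and 0.16. Those scalings shift every log2 ratio by -0.13 and -0.16. Relative to the median of the 264 genes, Mir425 lay at -0.06 and Gm24083 at 0.19 under each of these scalings.

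**Figure D4:**
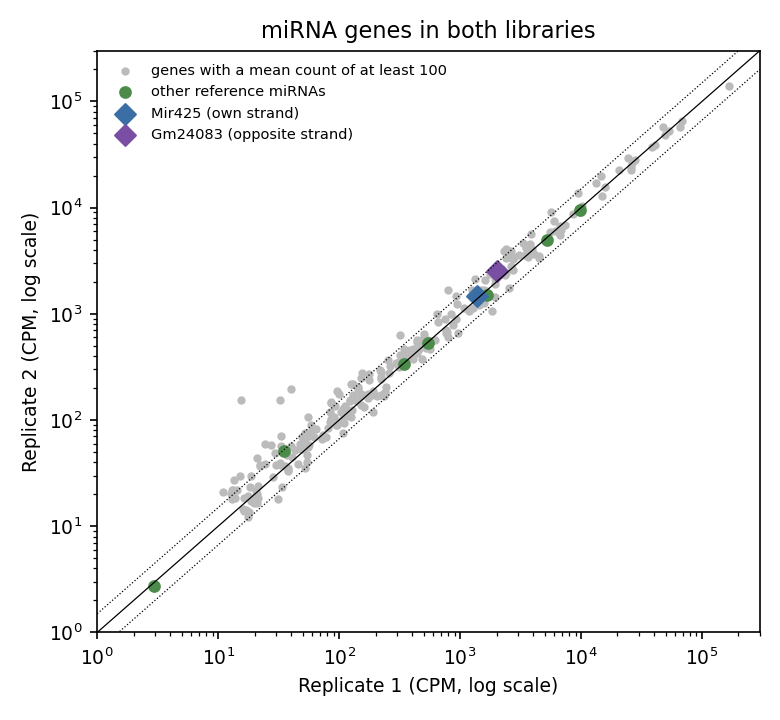
Level in replicate 1 (x axis) and replicate 2 (y axis), both in CPM on log axes, of the 264 genes averaging 100 or more reads (grey), the other reference miRNAs (green), Mir425 (blue diamond) and Gm24083 by its opposite strand (purple diamond). The solid line marks equal levels and the dotted lines 1.5-fold, and both members lie between the dotted lines.

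Because miR-191 serves as a reference, it was set beside 7 other miRNA genes of that use. The list was Mir103-1, Mir103-2, Mir16-1, Mir16-2, Mir25, Mir93 and Mir423, with Gm24083 as the eighth member, and 0 of the 8 passed 1.5-fold, which is near the background of 15.9% for a list of this size. Their median absolute log2 ratio was 0.09, against 0.25 over the 264 genes, both scaled to the own-strand sum. Of the 8, 7 averaged 100 or more reads, as all of the 264 did. With TMM factors the list had 0.19 and with DESeq2 size factors 0.20, and no such values are given for the 264 genes. The median log2 ratio of the 264 genes was 0.13 on the own-strand sum and 0.002 with TMM factors. The contrast of 0.09 with 0.25 thus depends on the scaling and is not read as a steadier level of the list. Mir25 and Mir93, of the miR-106b-25 cluster in Mcm7, stood at 537 ± 4.78 CPM and 9628 ± 111 CPM and had ratios of -0.02 and -0.02. Mir423 stood at 5114 ± 152 CPM with a ratio of -0.06. Unlike the Mir16 and Mir103 genes, these 3 genes and Gm24083 have no 20 nt in common with miRNA genes elsewhere.

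The Mir16 genes had log2 ratios of -0.16 (Mir16-1) and -0.02 (Mir16-2), and the Mir103 genes -0.12 (Mir103-1) and 0.56 (Mir103-2). Mir103-1 had only 22 and 16 reads, and its interval ran from -1.14 to 0.88. Gm24083 had the second largest absolute ratio of the list, after Mir103-2. That place depends on the scaling, since it ranked 5 with TMM factors and 8 with DESeq2 size factors. Its ratio to another gene within a library is free of the scaling. Gm24083 had 0.207 reads per Mir93 read in replicate 1 and 0.262 in replicate 2, a log2 difference of 0.34. The difference was 0.33 against Mir25 and 0.38 against Mir423. The log2 ratio of Gm24083 was above that of 183 of the 264 genes (69.3%). Against the references, Gm24083 was higher in replicate 2 for 6 of the 7, and nothing is read from that count. The exception was Mir103-2, against which the difference was -0.24. For Mir425 the same differences were 0.10 against Mir93, 0.09 against Mir25 and 0.13 against Mir423.

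**Figure D5:**
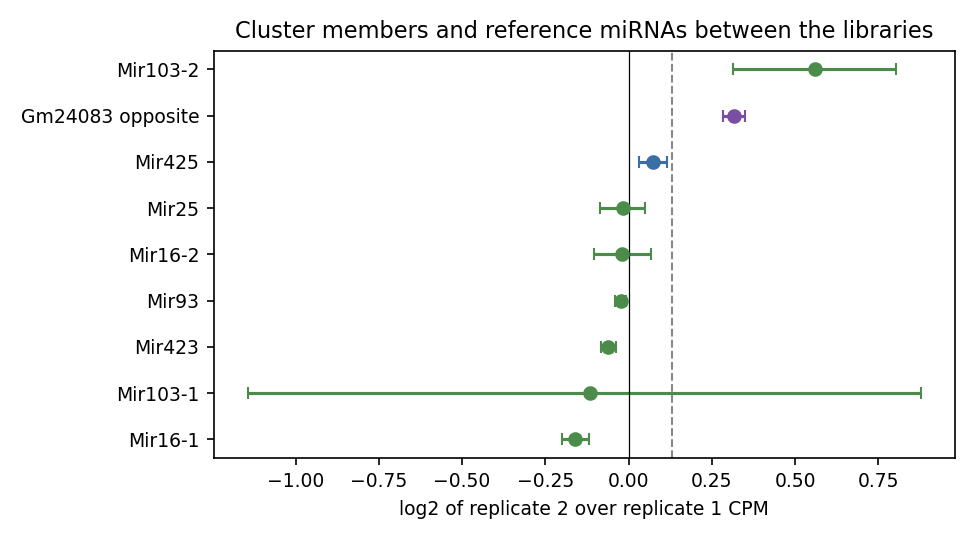
Log2 ratio of replicate 2 over replicate 1 CPM for Mir425 (blue), Gm24083 by its opposite strand (purple) and the 7 other reference miRNAs (green), with 95% intervals for counting error. The solid line marks 0 and the dashed line the median of 264 genes, 0.13, and Gm24083 at 0.32 lies above that median while Mir425 at 0.07 lies below it.

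The genes nearest to the members in level over the 2 libraries were found by the distance between their log2 CPM values. Nearest to Mir425 was Mir467e, of a repeated family in the Sfmbt2 gene, at a distance of 0.03, with 1374 and 1484 CPM. Mir1983 followed at 0.16, Mir101b at 0.19, Mir467d at 0.21 and Mir375, a miRNA of pancreatic islets, at 0.26. Mir467e, Mir467d and Mir101b have such common stretches and can be undercounted. Nearest to Gm24083 was Mir369, of the imprinted Dlk1-Dio3 domain, at a distance of 0.05, with 2061 and 2562 CPM. Mir298 followed at 0.11, Mir182 at 0.17, Mir379, also of the Dlk1-Dio3 domain, at 0.21 and Mir361 at 0.23. None of these 5 has one, and their log2 ratios ran from 0.13 to 0.43. With 2 libraries the distance reflects mainly the level.

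Markers of several cell types were set side by side between the pools, in which 15.9% of the 264 genes passed 1.5-fold. The 3 erythroid genes Mir451a, Mir144 and Mir486, which are high in red cell precursors, summed to 352 and 488 CPM in replicates 1 and 2. The 3 leukocyte genes summed to 619 and 700.1 CPM, with Mir223 at 393 CPM in each. Mir122, the hepatocyte miRNA, had 319 and 628 CPM. The 3 epithelial genes, led by Mir429, summed to 23477 and 20178 CPM, though Mir200c among them was higher in replicate 2, at 3940 and 4090 CPM. The 2 muscle genes summed to 989.9 and 677 CPM. The 3 nephron genes summed to 9852 and 14156 CPM, of which Mir30a made up 9427 and 13871 CPM, and endothelial Mir126a had 49708 and 47805 CPM. The part of any of these in the higher Gm24083 value of replicate 2 was not tested. All 16 markers were detected in both libraries. Mir204 at 234 and 167 CPM and Mir192 at 192 and 119 CPM, known from nephron epithelium, stood below hepatocyte Mir122.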

How the data were processed

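For each library the authors deposited raw read counts per miRNA gene in 3 columns, which hold the reads of both strands, of the gene's own strand and of the other strand. The counts come from alignments to mm10 with the GENCODE M4 annotation, per the notes beside the files. Which aligner and counter were used is not given in the sources used here. The meaning of the columns was read from the values. The first column equals the sum of the others in every gene, which does not say which of them is the own strand. The column taken as the other strand held 2.16% and 2.33% of the reads in genes in replicates 1 and 2. In total there were 14419931 and 12102315 reads; 27.1% and 26.6% matched several loci, 17.7% and 19.7% were unmapped and 2.57% and 4.05% lay in no gene. These stayed out of library sizes.

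Identifiers were named with GENCODE M21 on the same assembly, which matched 1894 of 1973. CPM used the sum of own-strand counts. Each mean and SD is over 2 libraries. Binomial intervals are exact (Clopper-Pearson), at 95%. With 1 group no contrast was tested. edgeR 4.0.16 gave TMM factors and DESeq2 1.42.0 size factors, in R 4.3.3, as alternatives. Python 3.11.15, scipy 1.17.1, pandas 2.3.3, numpy 2.4.6, matplotlib 3.10.9 and RNAfold of ViennaRNA 2.7.2 did the rest. The interval and the 1.5-fold count were tested on simulated data. These held planted changes and counting error but no variation between pools, so they cannot say how the count behaves in these libraries.

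The members, lists and alternatives were chosen with earlier results of these data known. Besides the members, the text names the 5 genes nearest to each in level, the reference and marker lists, the genes with at least 1000 opposite-strand reads in both libraries, and genes sharing a seed. Mir10a, Mir140, Mir9-1 with Gm25641 and the named neighbouring pairs were chosen after their values were seen.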

Additional observations from a re-analysis of the deposited data

How the results depend on the processing

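Leaving out a replicate left 1389 to 1461 CPM for Mir425, 2014 to 2506 CPM for Gm24083, 3403 to 3967 CPM for their sum, a ratio of 1.45 to 1.71, a median of 25.2 to 26.3 times for the neighbouring pairs, and 9 genes with at least 1000 opposite-strand reads. As counts in 1000000 of all reads in the files, the levels were 712 for Mir425, 1126 for Gm24083 and 1838 for the sum. Without Mir10a in the total they were 1684, 2667 and 4351 CPM. The ratio was 1.12 per nucleotide of Gm24083 and 1.82 per nucleotide of the Mir191 hairpin, alternatives chosen after seeing the data. The log2 ratio between libraries was -0.055 (TMM), -0.087 (DESeq2 size factors) and 0.028 (without Mir10a) for Mir425, and 0.19, 0.16 and 0.27 for Gm24083. Past 2-fold there were 9 genes in place of 42, and 84 past 1.5-fold with a mean count of at least 10, where more genes enter. The median of the 85 pairs was 17.9 times with that lower count minimum, and 12.7 times without genes that share sequence and 7.99 times with both genes averaging 100 reads, the last 2 chosen after seeing the data. The median absolute log2 ratio of the reference list was 0.19 with TMM and 0.20 with DESeq2 size factors. Of 46 alternative values, 22 moved by more than the replicate spread, counting interval or 1.5-fold limit set for them, and 24 did not. No paired analysis was possible because there is 1 group. Depth does not limit the members, with at least 8567 reads each, but 2 libraries limit the SD.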
